A study of Rattus norvegicus with 3 samples.

Results

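The genes of lipopolysaccharide recognition were followed across 3 soft tissues of the rat upper jaw. They comprise Lbp, Cd14, Ly96, Tlr4, Cd180 and Bpi, and were picked by gene symbol with earlier results of these data known. Of these 6 genes, 5 were measured among 14217 genes with a symbol, each through 1 probe set (several short probes summarised into 1 value). Bpi carried no probe set under its symbol and was not analysed here. RNA was measured on 1 array per tissue from wild type male Sprague Dawley rats aged 9 weeks. Peri-implant connective tissue (PICT) came from sockets that received a titanium alloy implant when the first molar was extracted, at 5 weeks of age. Oral mucosa connective tissue (OMCT) came from the same kind of extraction, at 5 weeks of age, without an implant. In both, tissue was taken 4 weeks after surgery. Periodontal connective tissue (PCT) lay around an upper first molar that had not been extracted. All tissue was cut out of sections by laser microdissection. The labels do not say how many animals stand behind an array, and the series' design text calls the PCT donors mice in 1 place where every sample label says rat.

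Bacterial lipopolysaccharide is sensed by a relay of proteins. Lbp, a secreted lipid-transfer protein known mainly as an acute phase product of the liver, pulls lipopolysaccharide monomers out of aggregates and passes them to Cd14, a lipid-anchored or soluble receptor of monocytes, macrophages and some stromal cells. Cd14 loads the molecule into Ly96 (MD-2), which sits on the ectodomain of the receptor Tlr4 and triggers its pairing and signalling through the adaptors Myd88 and Ticam1. Cd180 is a relative of Tlr4 without a signalling domain, found on B cells and macrophages, that pairs with Ly86 (MD-1) and restrains Tlr4 in myeloid cells. Bpi, a granule protein of neutrophils, shares its fold with Lbp but neutralises lipopolysaccharide instead of presenting it. In the RefSeq annotation of assembly GRCr8, Bpi and Lbp are next to each other on chromosome 3 with 0 annotated genes between them, and Ly96 and Tlr4 both lie on chromosome 5.

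The arrays were not equally bright. Median intensity was 56.5 in PICT, 57.4 in OMCT and 34.3 in PCT, so the medians on the log2 scale differed by 0.60 between PICT and PCT, by -0.02 between PICT and OMCT and by 0.62 between OMCT and PCT. Differences are therefore given as log2(intensity + 8.56) with each array's median subtracted, called relative differences, unless "as deposited" is written. A relative difference between -0.60 and 0 for PICT minus PCT, or between -0.62 and 0 for OMCT minus PCT, thus has the opposite sign as deposited. A gene was called higher or lower if its relative difference reached 1 in size (2-fold) and if, on the array with more signal, it was no dimmer than the median probe set. With 1 array per tissue there was no spread between replicates, so no test was run, and the number of arrays limits the precision. As a technical yardstick, probe sets of the same gene differed among themselves with an SD of 0.49 in each comparison. This SD was taken over 4525 genes with several probe sets and says nothing of the spread between animals. The highest of the negative control probe sets, made for a bacterial gene, stood at 8.36 in PICT, 3.60 in OMCT and 5.71 in PCT. The ratio of 3' to 5' signal for Hk1, which grows as RNA shortens, was 1.58 in PICT, 1.97 in OMCT and 2.80 in PCT, so RNA quality moved with every comparison against PCT. Its part in the results was not tested.

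Lbp was brightest in PICT. Its probe set (1387868_at) had an intensity of 419 in PICT, 59.8 in OMCT and 22.4 in PCT. The PICT value was 50.1 times the highest negative control of its array, against 16.6 times in OMCT and 3.92 times in PCT, so the gene was above background on every array. Within each array Lbp lay at percentile 89.7 of all probe sets in PICT, 50.8 in OMCT and 41.5 in PCT. The relative difference was 3.19 for PICT minus PCT, an intensity ratio of 18.7 as deposited, and 2.67 for PICT minus OMCT, a ratio of 7.01. OMCT minus PCT was 0.52, under 2-fold and close to the SD between probe sets, though 1.14 as deposited. Ranked from the highest difference, Lbp was gene 25 of 14217 for PICT minus PCT and gene 92 for PICT minus OMCT, but gene 2365 for OMCT minus PCT. Both PICT comparisons use the same PICT array, so they do not check each other. Over the 10 settings tried, the difference stayed at or above 2.38 for PICT minus PCT and 2.12 for PICT minus OMCT, though averaging probe sets and flooring at the negative control cannot alter a gene with 1 probe set above that control.

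**Figure D1:**
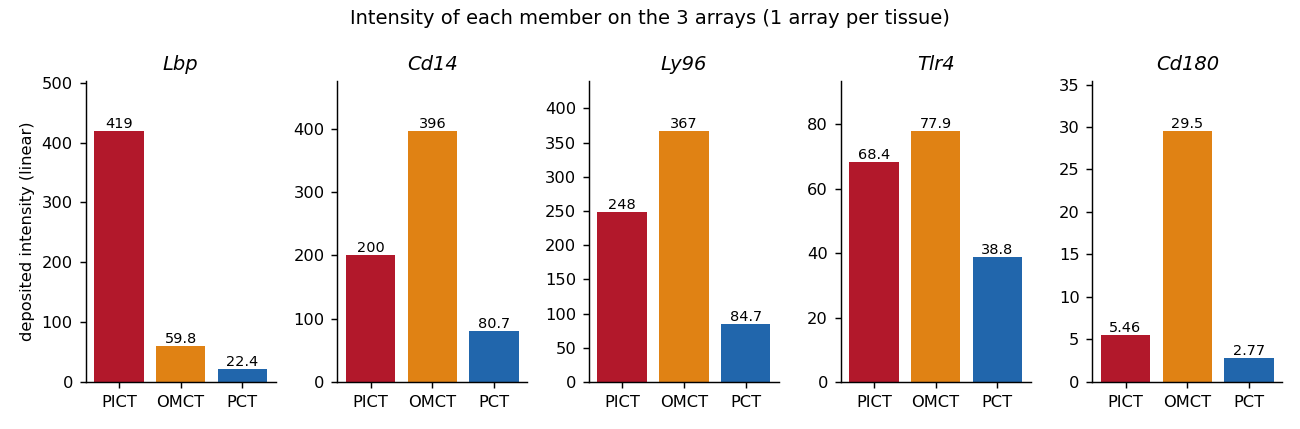
Deposited intensity (linear axis from 0, each panel with its own range) of the 5 measured genes on the PICT, OMCT and PCT arrays, 1 bar per array with its value above it. Lbp is highest in PICT at 419, while Cd14, Ly96, Tlr4 and Cd180 are highest in OMCT and lowest in PCT.

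The receptor side of the relay had another order. Cd14 (1368490_at) had an intensity of 200 in PICT, 396 in OMCT and 80.7 in PCT. Ly96 (1382277_at) stood at 248 in PICT, 367 in OMCT and 84.7 in PCT. Tlr4 (1387982_at) was at 68.4 in PICT, 77.9 in OMCT and 38.8 in PCT. All 3 were thus brightest in OMCT and dimmest in PCT, with PICT between them. Each was well above the negative controls, by at least 6.79 times for Tlr4 and 14.1 times for Cd14, both in PCT.

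Relative to the array medians, neither Cd14 nor Ly96 nor Tlr4 passed 2-fold between PICT and PCT. Cd14 differed by 0.62, Ly96 by 0.86 and Tlr4 by 0.10, and of all genes 10.3%, 6.08% and 34.1% had a higher difference than these. As deposited, Cd14 differed by 1.22 and Ly96 by 1.46, both past 2-fold, and Tlr4 by 0.70. The scaling thus decided those calls: with arrays aligned on the 9 hybridisation controls that are added to each array, Cd14 stood at 0.97 and Ly96 at 1.21. Between PICT and OMCT, where the medians hardly differed, Cd14 was at -0.94, Ly96 at -0.53 and Tlr4 at -0.15, again within 2-fold. For Cd14, 92.7% of all genes had a higher PICT minus OMCT difference.

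Between OMCT and PCT, Cd14 was higher by 1.56 and Ly96 by 1.39, both past 2-fold and close to 3 SDs between probe sets (3.19 and 2.84). These 2 calls held under every one of the 10 settings, with lowest values of 1.43 for Cd14 and 1.29 for Ly96. Tlr4 differed by 0.25 there, or 0.51 SDs. The co-receptor and the Tlr4 partner thus had larger OMCT minus PCT differences than the signalling receptor itself, without a replicate check.

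Of the 5 measured members, 1 (Lbp) was called higher and 0 lower for PICT minus PCT, where 3.98% of all genes were called higher and 3.37% lower. As deposited 14.1% of genes were called higher in that comparison and 0.9% lower, and 3 members were called. In PICT minus OMCT the count was again 1 higher (Lbp) and 0 lower, beside 4.15% and 4.46% of all genes (3.98% and 4.64% as deposited). In OMCT minus PCT 2 members (Cd14 and Ly96) were called higher and 0 lower, beside 5.66% and 4.81% (17.6% and 2.1% as deposited). Set against the receptors on the same arrays, the PICT minus OMCT difference of Lbp exceeded that of Cd14 by 3.60, of Ly96 by 3.19 and of Tlr4 by 2.81. Against PCT it exceeded them by 2.56, 2.33 and 3.09, and these gaps do not depend on how the arrays are centred.

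**Figure D2:**
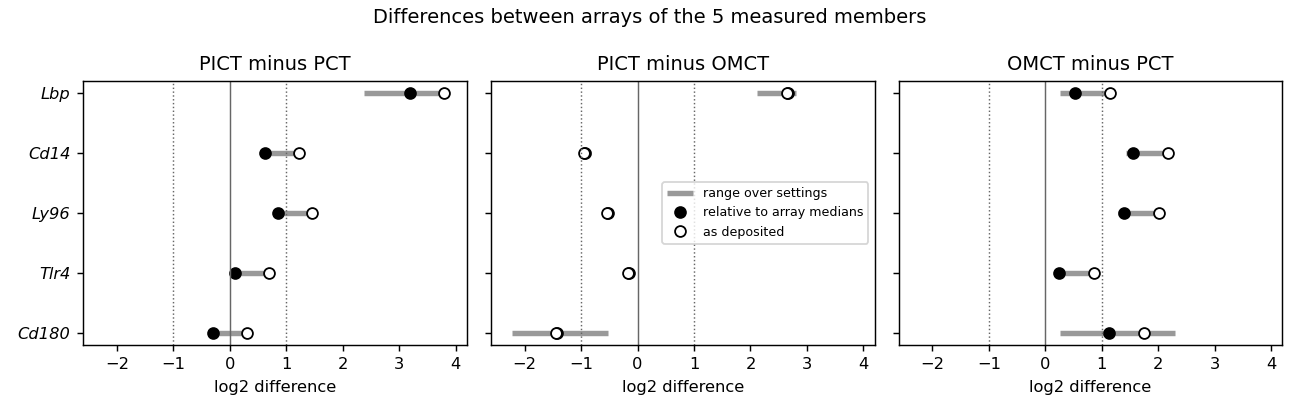
Log2 difference (horizontal axis) of the 5 measured genes (rows) in the 3 comparisons; filled points are relative to the array medians, open points as deposited, grey bars the range over 10 settings, dotted lines 2-fold. Lbp passes 2-fold in both PICT panels under all settings, and Cd14 and Ly96 do so in OMCT minus PCT.

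Cd180 was near background on most arrays. Its probe set (1393863_at) had an intensity of 5.46 in PICT, 29.5 in OMCT and 2.77 in PCT. In PICT and PCT this was within the range of the negative controls, and in OMCT the value was 8.20 times the highest of them but under the array median. The relative difference was -1.42 for PICT minus OMCT and 1.13 for OMCT minus PCT, neither of them a call because both arrays lay below their medians. With intensities below the highest negative control raised to it, they were -1.15 and 0.79, and with the pseudocount at the median of all values -0.52 and 0.25. PICT minus PCT has no usable size, since neither array measured the gene above background. Ly86, the partner of Cd180, stood at 50.1 in PICT, 55.5 in OMCT and 22.8 in PCT, with differences of 0.30 for PICT minus PCT and -0.11 for PICT minus OMCT.

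Cd14, Ly96 and Tlr4 shared the order OMCT, PICT, PCT in intensity. The array medians have this order too, and Tlr4 hardly differed relative to them, so the order alone is no sign of shared control. The promoters available for measured members were read from the RefSeq table of GRCr8, which held 3 of 5 (Cd14, Tlr4 and Cd180). The windows run from 250 bases before to 50 after the annotated start, and those of the co-receptor and the receptor are shown 5′ to 3′ on the gene's strand. Capitals mark GAGGAAG or its reverse complement, the core bound by PU.1, a transcription factor of myeloid cells. The Cd14 window is chr18:28611109-28611408 on the minus strand and the Tlr4 window chr5:85160997-85161296 on the plus strand.
Cd14: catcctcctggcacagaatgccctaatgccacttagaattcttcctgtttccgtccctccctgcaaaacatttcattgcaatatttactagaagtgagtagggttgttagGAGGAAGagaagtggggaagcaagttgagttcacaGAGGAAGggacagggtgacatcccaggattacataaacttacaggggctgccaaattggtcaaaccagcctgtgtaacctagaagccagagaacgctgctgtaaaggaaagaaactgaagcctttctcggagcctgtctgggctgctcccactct
Tlr4: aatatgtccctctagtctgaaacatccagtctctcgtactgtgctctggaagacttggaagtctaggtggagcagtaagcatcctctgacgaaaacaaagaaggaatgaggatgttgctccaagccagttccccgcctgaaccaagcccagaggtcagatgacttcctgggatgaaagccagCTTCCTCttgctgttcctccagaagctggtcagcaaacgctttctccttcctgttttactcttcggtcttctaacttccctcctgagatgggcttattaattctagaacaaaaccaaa
Cd14 held 2 matches, starting 140 and 105 bases before the start, and Tlr4 held 1 on the opposite strand, 68 bases before it, while Cd180 held 0. Of 33469 promoters of 300 bases, 12.4% held this motif on either strand. Searched the same way, TGANTCA (AP-1) and TTCNNNGAA (STAT) had 0 matches in the 3 windows, beside 7.33% and 8.87% of all promoters. The NF-kB consensus had 0, beside 4.18%. TTNNGNAA (C/EBP) had 1, in Cd14, beside 41.3%. No search counted an overlap between motifs, and a match is only a run of letters.

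Macrophage, fibroblast and endothelial markers shared with the receptors that OMCT was highest in summed intensity. The dim B cell and hepatocyte lists, given below, were highest in OMCT as well, so this trait is not particular to a few cell types. Apart from Cd14 itself, 14 macrophage markers were measured, with a summed intensity of 12880 in PICT, 15021 in OMCT and 1419 in PCT. For PICT minus PCT, 10 of them were called higher and 0 lower (median 2.32), for PICT minus OMCT 0 and 4 (median -0.44), and for OMCT minus PCT 13 and 0 (median 2.56). The medians over all genes were -0.13, -0.04 and -0.08. Of all genes, 3.98% were called higher and 3.37% lower for PICT minus PCT. The shares were 4.15% and 4.46% for PICT minus OMCT and 5.66% and 4.81% for OMCT minus PCT. Most of these markers differed between PICT and PCT by more than the receptors did. The difference was larger than that of Cd14 for 11 of the 14, of Ly96 for 11 and of Tlr4 for 12, and larger than that of Lbp for 3. Tyrobp, a signalling adaptor of myeloid receptors, had 1121 in PICT, 1005 in OMCT and 45.1 in PCT. Csf1r, the receptor for the macrophage growth factor, had 325, 494 and 33.5 in the same order. Both separated PICT and OMCT from PCT, by 3.79 and 2.38 for PICT minus PCT, where Cd14 reached 0.62. Other macrophage markers ran closer to Cd14. C1qa, C1qb and C1qc differed by 0.90, -0.27 and 0.24 for PICT minus PCT. For PICT minus OMCT they differed by -1.96, -2.54 and -1.59. Fewer cells of a type and less RNA per cell cannot be told apart in such samples. The 11 fibroblast markers had a summed intensity of 28938 in PICT, 48816 in OMCT and 22310 in PCT. For PICT minus PCT 1 was called higher and 1 lower (median -0.01), for PICT minus OMCT 0 and 6 (median -1.28), and for OMCT minus PCT 8 and 0 (median 1.30), beside the 0.62, -0.94 and 1.56 of Cd14 in the same comparisons. The 9 endothelial markers had a summed intensity of 2676 in PICT, 5107 in OMCT and 2921 in PCT, so PICT was lowest there. Their medians were -1.09 for PICT minus PCT, -1.31 for PICT minus OMCT and 0.17 for OMCT minus PCT. The part of these cell types in the receptor values was not tested.

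Lbp did not follow the macrophage markers between PICT and OMCT, where its difference of 2.67 lay above all 14 of them (highest 0.18). Neutrophil markers were closer to it in direction. Of 8 measured, 3 were called higher and 0 lower for PICT minus PCT (median 1.04), 5 and 0 for PICT minus OMCT (median 1.80), and 1 and 3 for OMCT minus PCT (median -0.62), with a summed intensity of 4872 in PICT, 1079 in OMCT and 840 in PCT. The shares of all genes called higher and lower were 3.98% and 3.37%, 4.15% and 4.46%, and 5.66% and 4.81% in the same order. Csf3r, the neutrophil growth factor receptor, had 70.5 in PICT, 29.5 in OMCT and 8.69 in PCT. Csf3r differed by 1.59 for PICT minus PCT and 1.08 for PICT minus OMCT, in the same directions as Lbp. S100a9, an alarmin also made by stressed keratinocytes, had 2794 in PICT, 720 in OMCT and 157 in PCT. Other markers ran otherwise. S100a8 and Cxcr2 were called lower in OMCT than in PCT, at -1.81 and -1.02, where Lbp had 0.52. Lcn2 differed by -0.86 for PICT minus OMCT, against the direction of Lbp though under 2-fold. Ly6g6c had 119 in PICT, 1.15 in OMCT (not above the negative control) and 152 in PCT. It is counted in the list's calls for PICT minus OMCT (3.74) and OMCT minus PCT (-4.67). Those values were nearer to the medians of the upper layer epithelium list (5.06 and -4.99) than to the neutrophil medians. Its place among neutrophil markers is thus uncertain. Np4, a neutrophil defensin, did not exceed the negative control on any array.

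Epithelial genes were bright on arrays labelled connective tissue. All 8 basal keratinocyte markers and all 11 fibroblast markers were at or above the median on all 3 arrays. Upper layer epithelium had a summed intensity of 23404 in PICT, 2496 in OMCT and 19639 in PCT over 10 genes. It was higher in PICT than in OMCT for 9 of 10 genes (median 5.06), while 0 of 10 were called in PICT minus PCT (median -0.31, which changes sign as deposited). Its order, with PCT near PICT, was thus not that of Lbp, which was lowest in PCT. What these cell type differences contribute to the Lbp values was not tested.

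Liver cells, the main source of circulating Lbp, left little signal. The 8 measured hepatocyte markers summed to an intensity of 96.6 in PICT, 117 in OMCT and 96.0 in PCT. Fgb did not exceed the negative control on any array, and Alb, the plasma albumin, had 22.0 in PICT, 26.8 in OMCT and 13.0 in PCT. B cell and plasma cell markers were also dim, with a summed intensity of 139 in PICT, 190 in OMCT and 62.8 in PCT over 7 genes including Cd180. The B cell gene Ms4a1 (CD20) did not exceed the negative control on any array.

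**Figure D3:**
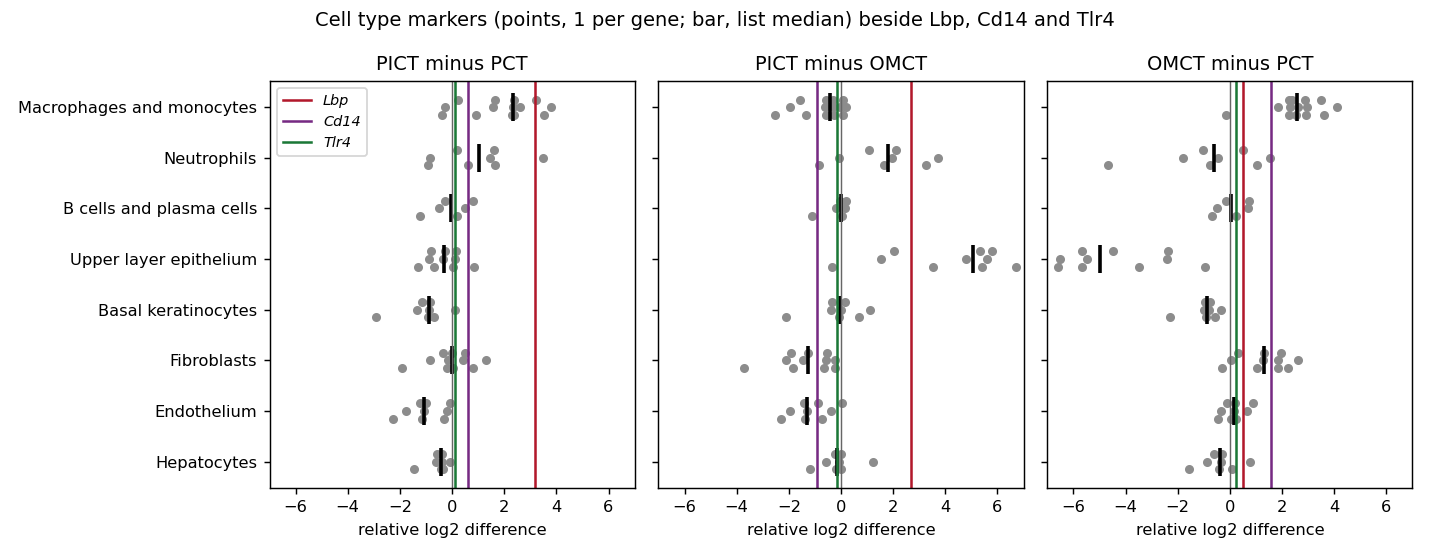
Relative log2 difference (horizontal axis) of cell type markers (grey points, 1 per gene, Cd14 and Cd180 left out; black bars, list medians) in the 3 comparisons, with coloured lines at Lbp, Cd14 and Tlr4. Lbp lies right of every macrophage point in PICT minus OMCT (highest 0.18), and Tlr4 and Cd14 lie left of most of them in PICT minus PCT.

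Among other proteins that handle lipopolysaccharide, the called genes included integrin chains, a scavenger receptor and a phosphatase. Of 16 measured accessory genes, 5 were called higher and 2 lower for PICT minus PCT (median 0.24), 2 and 1 for PICT minus OMCT (median -0.16), and 4 and 0 for OMCT minus PCT (median 0.32). Of all genes, 3.98% were called higher and 3.37% lower in the first comparison. The shares were 4.15% and 4.46% in the second and 5.66% and 4.81% in the third. Itgb2 and Itgam, the chains of complement receptor 3, which also binds lipopolysaccharide, had differences of 2.69 and 2.35 for PICT minus PCT and of -0.21 and -0.05 for PICT minus OMCT. Itgb2 thus had the order of the summed macrophage markers (OMCT, PICT, PCT), while Itgam is itself one of those markers. The PCT value of Itgam, 5.72, hardly exceeded the highest negative control of 5.71, so its difference of 2.35 is not exact. Cd36, a scavenger receptor for lipids that assists other Toll-like receptors, was higher in PICT in both comparisons, with 124 in PICT, 42.0 in OMCT and 5.60 in PCT. Its PCT value did not exceed the negative control, so the difference of 2.62 from PCT is not exact. Alpl, the tissue-nonspecific alkaline phosphatase, which can detoxify lipopolysaccharide by removing phosphate, ran the other way. It had 79.4 in PICT, 462 in OMCT and 128 in PCT, with differences of -2.40 against OMCT and -1.23 against PCT. Tmed7, a trafficking protein of Tlr4, was called lower than in PCT at -1.02, but another of its probe sets had 0.92. Il1rl1 was called higher in PICT than in PCT and OMCT, at 1.43 and 1.39. Its other probe set, not above the negative control in PICT, had -0.33 and -1.46.

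Within the lipid-transfer family that holds Lbp and Bpi, 7 of 11 listed genes were measured. Pltp, the phospholipid transfer protein of plasma, was the other called gene. It had 496 in PICT, 445 in OMCT and 72.0 in PCT, differing by 2.04 for PICT minus PCT, 0.17 for PICT minus OMCT and 1.87 for OMCT minus PCT. Pltp thus separated PICT and OMCT from PCT, while Lbp separated PICT from both. The other 5, of the Bpif group whose best known members are secreted in airways and saliva, were dim, between 0.986 and 22.9 in PICT, and 4 of them did not exceed the negative control there.

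The adaptors and kinases downstream of Tlr4 were called about as often as genes at large. Of 18 measured, 1 was called higher and 0 lower for PICT minus PCT (median 0.01), 1 and 0 for PICT minus OMCT (median 0.18), and 0 and 1 for OMCT minus PCT (median -0.10). Of all genes, 3.98% were called higher and 3.37% lower in the first of these comparisons, 4.15% and 4.46% in the second, and 5.66% and 4.81% in the third, so these counts show nothing about the group. The gene called in both PICT comparisons was Irak2, a kinase that sustains Toll-like receptor signalling and is itself induced by it. Irak2 had 87.1 in PICT, 35.1 in OMCT and 21.5 in PCT, with differences of 1.07 and 1.15. Ikbkb, the kinase that marks the NF-kB inhibitor for breakdown, was the gene lower in OMCT than in PCT, at -1.24. Myd88, the adaptor shared by most Toll-like receptors, had 337 in PICT, 279 in OMCT and 128 in PCT, differing by 0.73 from PCT and 0.28 from OMCT, both under 2-fold.

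Genes that lipopolysaccharide is known to induce were higher in PICT in larger numbers. Of 25 measured, 11 were called higher and 0 lower for PICT minus PCT (median 1.18, beside 3.98% of all genes higher), and 8 and 0 for PICT minus OMCT (median 0.64, beside 4.15%). OMCT and PCT differed less, with 3 higher and 1 lower (median 0.28), beside 5.66% and 4.81% of all genes. This list was drawn up with earlier results of these data known, so its count is not independent evidence, and its genes also respond to cytokines and interferons.

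Their order among the arrays was of several kinds. Cxcl2, a neutrophil attractant, had 315 in PICT, 46.8 in OMCT and 40.4 in PCT. Il1b, the cytokine interleukin 1 beta, had 1216 in PICT, 408 in OMCT and 188 in PCT. Tnfaip3 (A20), the feedback inhibitor of NF-kB, had 218 in PICT, 93.4 in OMCT and 43.7 in PCT. In deposited intensity these had the order of Lbp, with PICT highest by more than 2-fold over either array. Relative to the array medians, OMCT minus PCT was -0.44 for Cxcl2, 0.46 for Il1b and 0.34 for Tnfaip3, beside 0.52 for Lbp. Cxcl10 had 264 in PICT, 13.7 in OMCT and 21.7 in PCT. Vcam1 had 125 in PICT, 29.5 in OMCT and 33.3 in PCT. Both were thus highest in PICT but, unlike Lbp, lower in OMCT than in PCT. Ptgs2, the inducible cyclooxygenase, differed from that, with 253 in PICT, 188 in OMCT and 11.3 in PCT. Ccl2, which attracts monocytes, had 298 in PICT, 391 in OMCT and 26.7 in PCT. For these 2 genes PICT and OMCT lay together and PCT apart, as for the macrophage markers Tyrobp and Csf1r. Not all macrophage markers did so, since Adgre1, C1qa, C1qb and C1qc were called lower in PICT than in OMCT. Il1rn, the interleukin 1 receptor antagonist, had 1716 in PICT, 803 in OMCT and 1991 in PCT, and was the gene lower in OMCT than in PCT, at -1.92. The classical targets Tnf and Il6 were below the array median on every array, at 42.8 and 23.5 in PICT, and were not called. Tnf differed by 1.41 for PICT minus PCT, past 2-fold, and so missed the call only for its dimness. Its PCT value did not exceed the negative control, and another of its probe sets had 0.26. Il6 differed by 0.47.

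**Figure D4:**
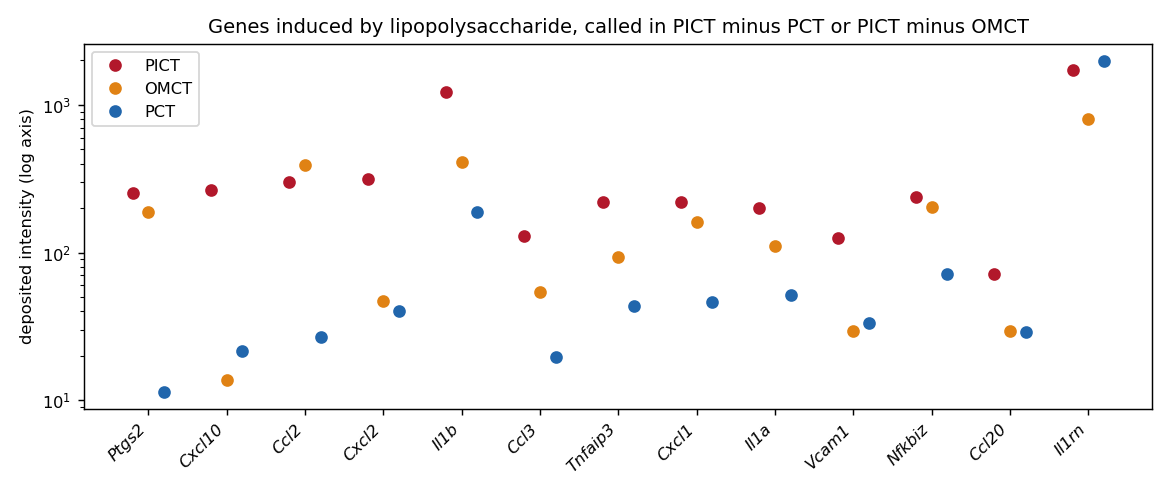
Deposited intensity (log axis) of the 13 lipopolysaccharide-induced genes called in PICT minus PCT or PICT minus OMCT (at least 2-fold and not dimmer than the array median), 1 point per array. PICT is the highest point for all but Ccl2 (298 against 391 in OMCT) and Il1rn (1716 against 1991 in PCT).

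Lbp is also an acute phase gene, and most of that class was dim here. Of 19 measured acute phase genes including Lbp, 2 were called higher and 1 lower for PICT minus PCT (median -0.29), and 2 and 1 for PICT minus OMCT (median 0.08). Of all genes, 3.98% and 3.37% were called in the first comparison and 4.15% and 4.46% in the second. With 19 genes, such small counts show little about the class. The gene called higher beside Lbp was A2m, the alpha-2-macroglobulin that is a major acute phase protein of rats, with 181 in PICT, 54.6 in OMCT and 9.05 in PCT. Its differences of 2.82 and 1.61 had the direction of those of Lbp in both comparisons. C3, the central complement component, was lower in PICT than in PCT at -1.62, and Pla2g2a, a secreted phospholipase, was lower than in OMCT at -2.01. In OMCT minus PCT, 1 gene was higher and 1 lower, Pla2g2a at 2.15 and C3 at -2.35, beside 5.66% and 4.81% of all genes. In PICT 9 of the 19 did not exceed the negative control, in OMCT 6 and in PCT 9, and relative differences of such genes mostly restate the array medians. The fibrinogen chain Fgb and the pentraxin Apcs were among those not above it on any array. For Cp, ceruloplasmin, the probe sets disagreed: the set used differed by -0.29 between PICT and PCT, and another by 1.60.

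Among 10 measured regulators of the acute phase response, 1 was called higher and 0 lower for PICT minus PCT (median 0.81), 2 and 0 for PICT minus OMCT (median 0.17), and 1 and 0 for OMCT minus PCT (median -0.14). The shares of all genes called higher and lower were 3.98% and 3.37%, 4.15% and 4.46%, and 5.66% and 4.81% in the same order. With 10 genes, such small counts show little about the group. Osm (oncostatin M), an interleukin 6 family cytokine of myeloid cells that induces acute phase genes, had 276 in PICT, 37.3 in OMCT and 36.7 in PCT. It differed by 2.05 for PICT minus PCT and 2.66 for PICT minus OMCT. Cebpb, a transcription factor of acute phase genes, had 211 in PICT, 77.1 in OMCT and 69.0 in PCT, differing by 0.90 and 1.38. Both were thus brightest in PICT. OMCT and PCT were close in deposited intensity, but relative to the array medians OMCT minus PCT was -0.60 for Osm and -0.48 for Cebpb. Stat3, which relays interleukin 6 family signals, differed by -0.02 and 0.09. Cebpd, a relative of Cebpb, was the gene higher in OMCT than in PCT, at 1.05, but its other probe sets had 0.46 and -0.02.

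Few genes lay near Lbp in both the order and the size of their differences over the 3 arrays. Likeness was measured as the Euclidean distance between log2 profiles after subtracting each gene's mean, over 9853 other genes that reached the median of some array. Nearest was Slc47a1 (MATE1, an exporter of organic cations), at a distance of 0.24, with 375 in PICT, 68.1 in OMCT and 20.8 in PCT. Ccr1, a chemokine receptor of myeloid cells, followed at 0.58, then the interferon-induced Mx1 at 0.59, the sialic acid receptor Siglec5 at 0.63 and the interferon-induced Isg15 at 0.67. Within a distance of 0.5 there was 1 gene for Lbp, against 439 for Cd14, 603 for Ly96 and 5201 for Tlr4. This distance is not scaled for the size of the differences. A gene with large differences, such as Lbp, thus has few near genes, and a flat one, such as Tlr4, has many. These counts restate those sizes and do not show that the order of Lbp among the arrays is rare. Nearest to Cd14 were Clip2, Dctd and Fam3c, nearest to Ly96 Cyp20a1, Cd63 and Lamb1, and nearest to Tlr4 Lage3, Ndufc2 and Haus1. With a pseudocount of 1 only Slc47a1 stayed among the 5 genes nearest to Lbp.

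**Figure D5:**
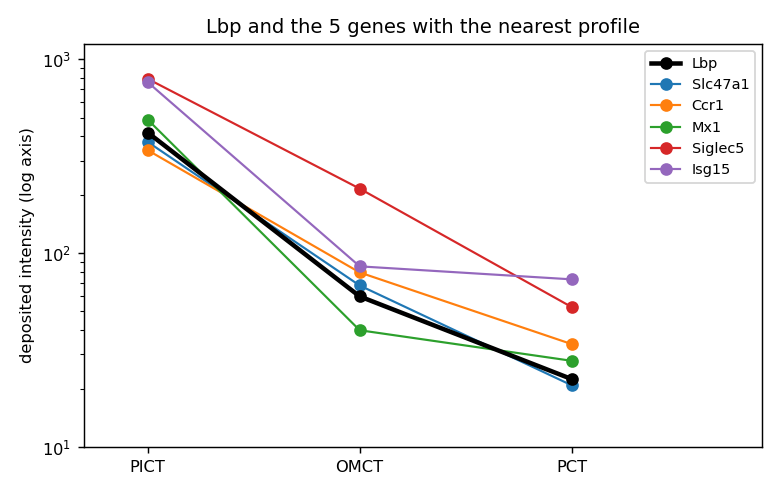
Deposited intensity (log axis) on the PICT, OMCT and PCT arrays of Lbp (black) and the 5 genes whose profile lies nearest to it, 1 point per array, joined to guide the eye. All 6 genes are highest in PICT; Slc47a1 lies nearest, at a distance of 0.24.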

How the data were processed

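The authors' deposited values are intensities, 1 per probe set and array, on a linear scale as their range and skew show. Per the labels' protocols, RNA from laser-microdissected tissue was purified with RNeasy and prepared for the arrays with a 3' IVT Express kit. The sources used here do not give how probes were summarised or arrays scaled. Of 31099 probe sets, 20826 had 1 gene symbol in the platform annotation, 436 had several and 9831 had none; those with several or none were left out. By gene ID, 20758 matched RefSeq's GRCr8 gene table, and 0 symbols differed. Where a gene had several probe sets, the one brightest on average over the 3 arrays (log2) stood for it, giving 14217 genes. The pseudocount, 8.56, is the 20th percentile of all values. The fold rule was checked on simulated data. Python 3.11.15, numpy 2.4.6, pandas 2.3.3 and matplotlib 3.10.9 were used. No test was run, since each tissue has 1 array.

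The members, gene lists and marker lists were chosen with earlier results of these data known. Named genes are the 6 members and up to 4 genes per list and comparison past the fold rule. The genes nearest in profile to Lbp (5), Cd14, Ly96 and Tlr4 (3 each) are named too. Genes outside this rule were named after their values were seen. They are uncalled examples such as Tnf, Il6, Stat3, Myd88 and Ly86, called examples such as Tnfaip3, and markers given as checks. Alternatives were values as deposited, a common trimmed mean, the 75th percentile, quantile normalization, pseudocounts of 1 and of the median, the mean of a gene's probe sets and no filter on dim genes. Alignment on hybridisation controls and a floor at the negative control were chosen after seeing the data.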

Additional observations from a re-analysis of the deposited data

How the results depend on the processing

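Over the alternatives run, Lbp kept its direction and its 2-fold call in PICT minus PCT (2.38 to 3.79) and PICT minus OMCT (2.12 to 2.81). The values furthest from the reported ones came as deposited (3.79 for PICT minus PCT and 1.14 for OMCT minus PCT) and with the pseudocount at the median (2.38 for PICT minus PCT and 2.12 for PICT minus OMCT), a setting that compresses dim arrays by construction. As deposited, 3 members were called in PICT minus PCT (Lbp, Cd14 and Ly96), and with arrays aligned on hybridisation controls 2 (Lbp and Ly96), against 1 as reported.

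Counts of all genes called moved by more than 1.5 times under some settings. For PICT minus PCT the reported 1045 became 2137 as deposited (94.0% of them higher, against 54.2% as reported), 530 with the pseudocount at the median and 1602 without the filter on dim genes. For PICT minus OMCT the 1224 became 734 with the pseudocount at the median. For OMCT minus PCT the 1489 became 2799 as deposited (89.4% higher, against 54.1%) and 974 with the pseudocount at the median. Of the genes in the pathway lists, 21 were called in OMCT minus PCT as deposited, against 13. List medians moved by more than the SD between probe sets in 28 of 42 cases as deposited, the comparisons with PCT, and in 0 of 42 under each of the trimmed mean, the 75th percentile, quantile normalization and the hybridisation controls. With the floor at the negative control 1 of 42 moved, the median of the LBP and BPI fold family for PICT minus PCT, which was -0.36 against 0.16 as reported.

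No paired analysis was possible because each tissue has 1 array, and leaving out a replicate was not possible either. Which scaling between PCT and the other arrays is right cannot be told from these files. For Cd180 in PICT and PCT, signal at the level of the negative controls limits what can be said.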
